A study of Homo sapiens with 12 samples.

Results

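The comparison described here is the difference in gene expression between cells with high and low Wnt reporter signal that DU145 and PC3, a pair of human prostate cancer cell lines, have in common. All 12 libraries of the series were used, 3 in each of 4 groups, the GFP high and the GFP low sort of either line. Both lines were grown in DMEM with 10% fetal bovine serum, with no drug treatment in the labels, and total RNA was taken from cells sorted by GFP brightness, the top 10% as Wnt/β-catenin active (GFP high) and the bottom 10% as inactive (GFP low). The labels do not name the reporter construct, do not say whether each reporter line was 1 clone or a pool, and do not say whether the 3 replicates were separate cultures, so the p-values reflect only the variation among these libraries, and that variation may be technical. Of 18950 genes in the deposited table, 8655 reached a level of 16 CPM (counts per 1e+06 counts of the library) in at least 3 libraries and were tested. For each gene, the GFP high minus GFP low difference was taken within DU145 and within PC3, and the shared effect is the mean of those 2 differences on the log2 scale.

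In canonical Wnt signalling, Wnt ligands bind Frizzled receptors and LRP5 or LRP6, the destruction complex built on AXIN and APC is held back, and β-catenin (CTNNB1) accumulates and enters the nucleus. There it binds DNA through TCF7, LEF1, TCF7L1 and TCF7L2, which otherwise recruit Groucho/TLE corepressors. AXIN2, NKD1, RNF43 and ZNRF3 are feedback inhibitors that many Wnt-active tissues induce, and LEF1 is itself a frequent target. DU145 and PC3 were derived from metastases of prostate cancer, to brain and to bone.

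Promoter sequences of 3 genes show what a TCF/LEF motif search gave around genes that moved in both lines. They are shown for RAB3B, the 1 gene risen in both lines with a match, for FN1, which rose the most in PC3 among the genes risen in both lines, and for LEF1. Each is 250 bases upstream of a gene start on the minus strand of GRCh38.p14 from RefSeq, written 5′ to 3′ along the gene, with any match to ATCAAAG (either strand) in capitals. The windows are chr1:51990701-51990950 for RAB3B, chr2:215436069-215436318 for FN1 and chr4:108166302-108166551 for LEF1.
RAB3B: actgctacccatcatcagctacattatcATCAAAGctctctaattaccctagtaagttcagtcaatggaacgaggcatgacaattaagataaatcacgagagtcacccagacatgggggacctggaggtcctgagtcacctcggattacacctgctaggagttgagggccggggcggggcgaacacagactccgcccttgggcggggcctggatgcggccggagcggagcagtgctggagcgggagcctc
FN1: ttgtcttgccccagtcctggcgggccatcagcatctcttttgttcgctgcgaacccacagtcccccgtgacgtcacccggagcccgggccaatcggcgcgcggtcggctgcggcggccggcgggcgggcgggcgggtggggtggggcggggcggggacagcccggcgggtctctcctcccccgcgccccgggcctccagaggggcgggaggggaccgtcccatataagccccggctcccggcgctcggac
LEF1: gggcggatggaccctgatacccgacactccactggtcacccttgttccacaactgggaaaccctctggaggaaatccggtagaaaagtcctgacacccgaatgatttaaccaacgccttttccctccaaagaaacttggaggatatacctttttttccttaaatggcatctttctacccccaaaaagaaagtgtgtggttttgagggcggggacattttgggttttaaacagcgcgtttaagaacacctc
The match in the RAB3B window begins 222 bases upstream of the RefSeq start, and the other 2 windows hold none. Over windows of 300 bases (250 before and 50 after each start), 1 of 24 genes risen in both lines that had a window held the motif (4.17%), as did 1 of 86 fallen in both lines (1.16%, RAPGEF3) and 127 of 7190 tested genes (1.77%). A match is a description of letters, and no match says nothing about the factor.

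Library totals ran from 13453614 to 21528810 estimated counts. DU145 GFP high 1 and 2 and PC3 GFP low 2 and 3 stood apart from the other library of their group in earlier results of these data. With 3 libraries in a group it cannot be told which side was atypical. Counts are also given without each pair. Such an omission leaves 1 library in that group, so calls lost there cannot be told apart from lost precision. Each sample is bulk RNA of a sorted population, in which fewer cells of a type and less RNA per cell cannot be told apart.

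Few genes moved the same way in both lines. At an adjusted p under 0.05 in each line (limma, Benjamini-Hochberg over 8655 genes), 28 genes rose in both (0.324% of those tested), 105 fell in both (1.21%) and 153 changed in opposite directions (1.77%), 286 genes in all (3.3%). DU145 alone had 3133 called genes (36.2%), 1339 risen (15.5%) and 1794 fallen (20.7%), and PC3 had 867 (10.0%), of which 380 had risen (4.39%) and 487 had fallen (5.63%). Of the 380 genes risen in PC3, 28 (7.37%) rose in DU145, where 15.5% of all genes rose, and 118 (31.1%) fell in DU145, where 20.7% of all genes fell. Of the 487 genes fallen in PC3, 105 (21.6%) fell in DU145 and 35 (7.19%) rose there. As shares of the DU145 lists, the 28 are 2.09% of the genes risen and the 105 are 5.85% of those fallen. Across the 8655 genes, which are not independent replicates, the 2 lines' changes had a Spearman correlation of 0.053 and a Pearson correlation of 0.023, and 52.9% of genes had the same sign. With a smooth trend in transcript GC content and length removed, the correlations were -0.044 and -0.041.

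**Figure D1:**
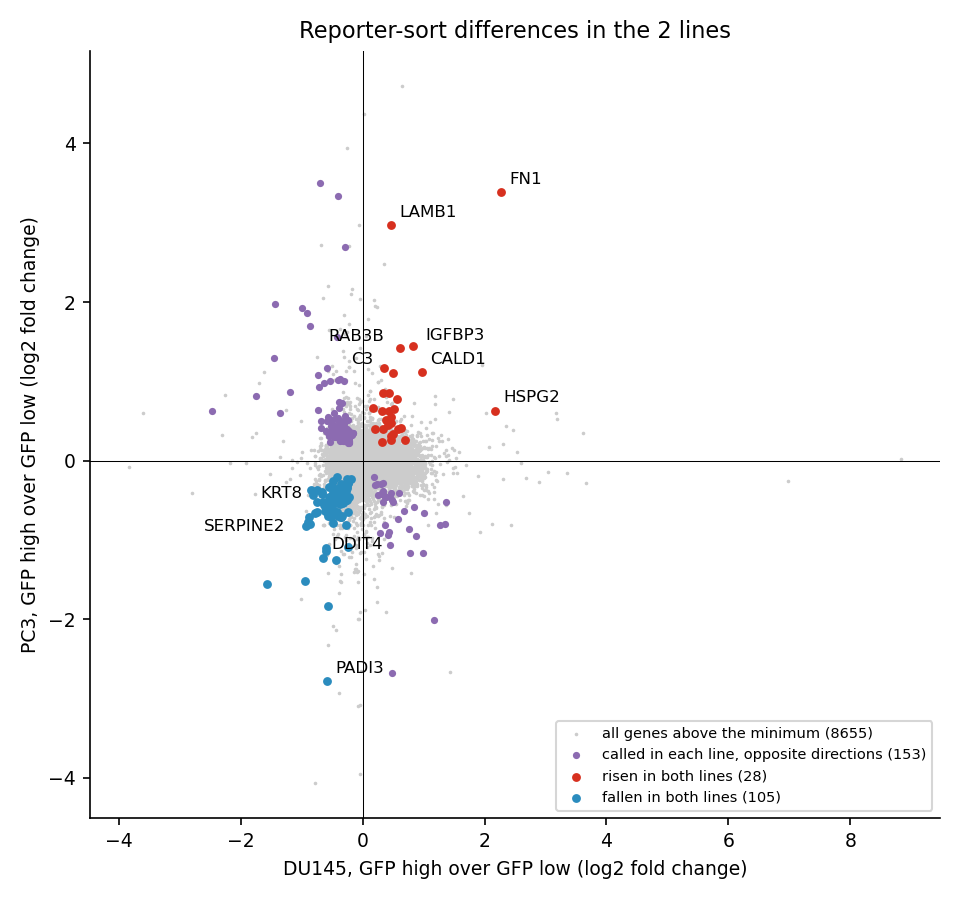
Each point is 1 of 8655 genes, with its GFP high over GFP low log2 fold change in DU145 (x axis) and in PC3 (y axis); colours mark genes called in each line. Called in each line were 28 genes risen in both (red), 105 fallen in both (blue) and 153 changed in opposite directions (purple). The changes of all genes have a Spearman correlation of 0.053, and of -0.044 with a smooth trend in transcript GC content and length removed.

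In the mean of both lines 1735 genes were called (20.0%), 597 risen (6.9%) and 1138 fallen (13.1%). Of these, 490 risen genes (5.66% of all tested) and 999 fallen genes (11.5%) had the same sign in both lines. With libraries scaled to equal medians the split became 771 risen and 714 fallen, and with quantile normalization 667 and 750. In both lines, every GFP high library lay above every GFP low library for 166 genes (1.92%) and below for 361 (4.17%). With the replicate number as a block within each line, 55 genes rose and 240 fell in both, and the mean contrast gave 1493 and 1960. With the block in PC3 only, whose same-numbered libraries deviated together in replicates 2 and 3, these were 21 and 118, and 764 and 1317. The change itself differed between DU145 and PC3 for 1667 genes (19.3%).

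The size of the shared set depended on single libraries. Leaving out DU145 GFP high 3 gave 68 genes risen and 252 fallen in both lines, and leaving out DU145 GFP high 2 gave 9 and 34. Without DU145 GFP low 3 there were 12 and 29. Without both DU145 GFP high 1 and 2, 5 genes rose and 7 fell in both lines, and without PC3 GFP low 2 and 3, 12 rose and 23 fell. In every one of the 12 single omissions 7 risen and 15 fallen genes kept their call in each line, and the results below start from these. Of those genes, 2 of the 7 and 3 of the 15 also kept both calls without DU145 GFP high 1 and 2, and 7 of 7 and 7 of 15 without PC3 GFP low 2 and 3. Of the 28 risen genes 3 (FN1, CALD1 and SERPINB8) reached 16 CPM only in GFP high libraries, and 6 of the 105 fallen genes reached it only in GFP low ones. Such a gene had to differ to be tested, and its call is given as a description.

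**Figure D2:**
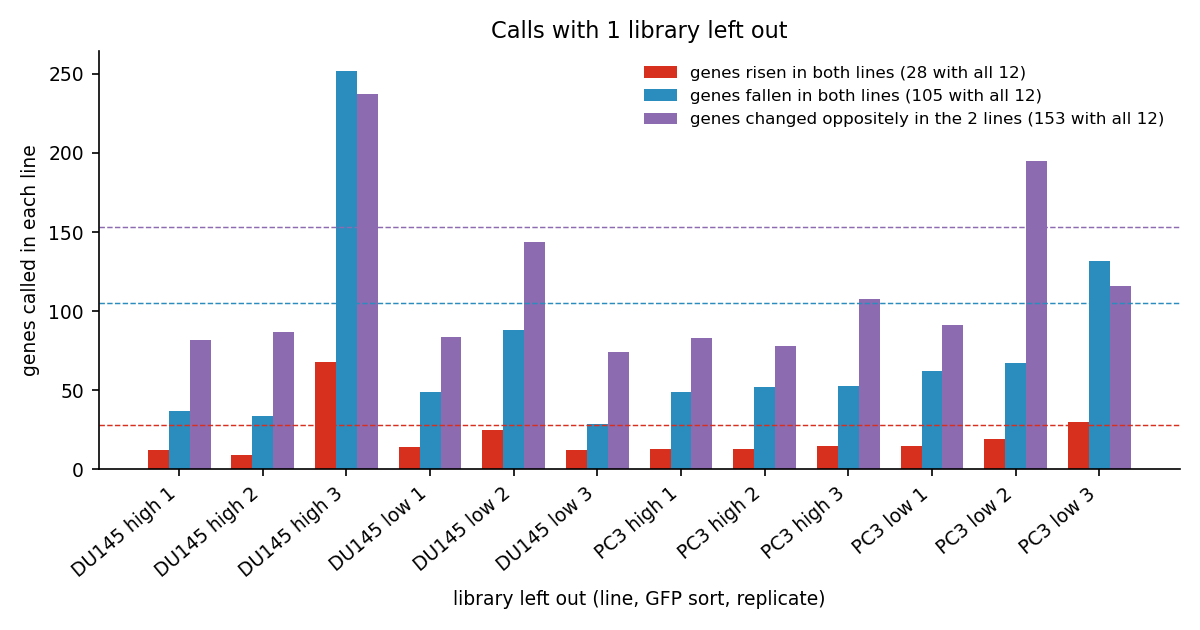
Bars give the number of genes called in each line when 1 library (x axis) is left out: risen in both (red), fallen in both (blue) and opposite (purple); dashed lines mark 28, 105 and 153 with all 12 libraries. The bars range from 9 to 68 risen and from 29 to 252 fallen, highest without DU145 high 3.

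Of the 7 genes that rose in both lines in each omission, FN1, HSPG2, CALD1, IGFBP3, RAB3B and ANTXR1 are described here. Of these HSPG2, RAB3B and ANTXR1 are among the 12 risen genes named by the size rule, FN1 and IGFBP3 are among the named members of the gene lists below, and CALD1 was chosen after its values were seen. All 7 kept their call in both lines after a smooth trend on transcript GC and length was taken out, and HSPG2 did so in the 29 refits made at the 0.05 threshold. FN1 kept both calls in the 28 refits that tested it, being below the minimum of log2 6. In the main fit it was tested only through PC3 GFP high, so these calls are a description.

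FN1 (chr2:215360440-215436172, minus strand, GRCh38, GENCODE 29), which encodes fibronectin, a matrix glycoprotein bound by integrins, was at 6.19, 5.15 and 5.39 CPM in the DU145 GFP high libraries and at 1.49, 1.0 and 1.02 in the GFP low ones. In PC3 it was at 46.6, 51.2 and 50.7 CPM in GFP high and at 4.45, 5.66 and 4.21 in GFP low. Every GFP high library was above every GFP low library of its line, and the PC3 GFP low libraries were near the DU145 GFP high ones. The fold change was 4.84 in DU145 (log2 2.28) and 10.4 in PC3 (log2 3.38). FN1 reached the minimum through PC3 GFP high alone, so no p is given for it.

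HSPG2 (chr1:21822245-21937297, minus strand) encodes perlecan, a heparan sulfate proteoglycan of basement membranes. It stood at 231, 228 and 224 CPM in DU145 GFP high against 50.1, 49.8 and 52.4 in GFP low. In PC3 the values were 196, 192 and 171 CPM in GFP high against 110, 127 and 125 in GFP low. The groups did not overlap in either line, and the rise was larger in DU145 (4.49-fold, adjusted p = 2.3e-09, limma) than in PC3 (1.55-fold, adjusted p = 0.00012). Its estimated counts were not whole in 8 libraries, so its level is uncertain where reads were split between features.

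CALD1 (chr7:134744252-134970728, plus strand), the actin-binding protein caldesmon, had close to the same levels in both lines. Its values were 28.1, 23.4 and 21.5 CPM in DU145 GFP high against 12.6, 13.2 and 11.3 in GFP low, and 27.1, 20.4 and 28.7 CPM in PC3 GFP high against 10.9, 11.2 and 12.9 in GFP low. Its fold change was 1.96 in DU145 and 2.16 in PC3. Only GFP high libraries reached the minimum, so no p is given. IGFBP3 (chr7:45912245-45921874, minus strand), a secreted carrier of insulin-like growth factors, was at 7.32, 5.69 and 4.77 CPM in DU145 GFP high against 3.06, 3.71 and 3.19 in GFP low. In PC3 it was at 47.2, 49.8 and 43.5 CPM against 17.6, 16.2 and 17.9, so that all 4 groups kept apart. The rise was 1.76-fold in DU145 and 2.71-fold in PC3.

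RAB3B (chr1:51907956-51990764, minus strand), a small GTPase of regulated secretion, was at 70.5, 83.4 and 55.1 CPM in DU145 GFP high and at 44.3, 50.1 and 41.6 in GFP low. Its PC3 values were 50.9, 49.5 and 53 CPM in GFP high and 20.3, 17.0 and 20.0 in GFP low. The DU145 GFP high libraries spread the widest but stayed above the GFP low ones, for a 1.52-fold rise against 2.68-fold in PC3. ANTXR1 (chr2:69013178-69249327, plus strand), a membrane receptor for collagens and anthrax toxin, rose 1.34-fold in DU145 (201 ± 20 against 149 ± 6.5 CPM, SD, n = 3) and 1.80-fold in PC3 (119 ± 4.6 against 66.4 ± 5.7).

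**Figure D3:**
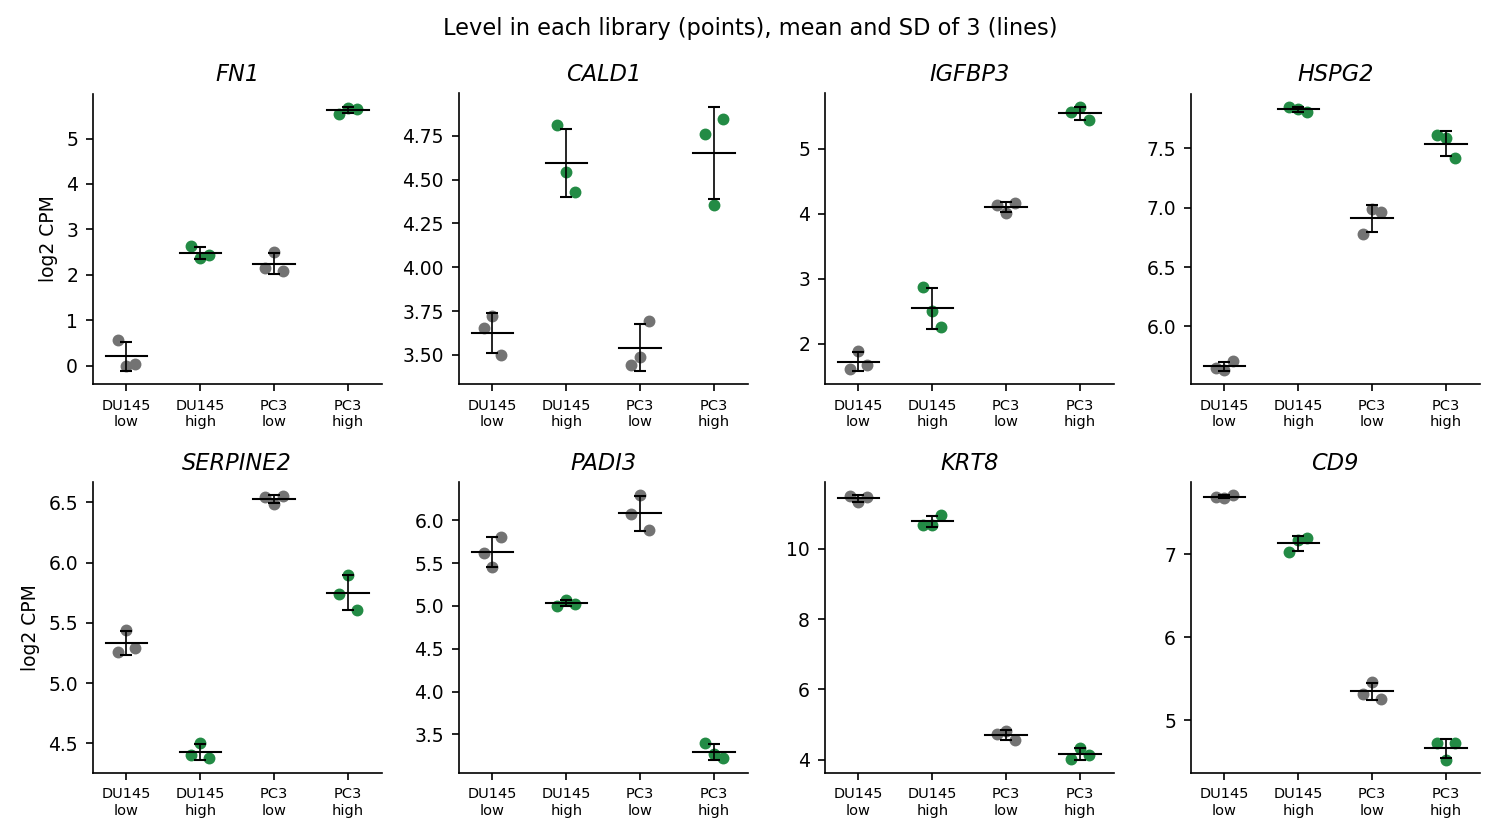
Level of 8 genes in each of the 12 libraries (log2 CPM, y axis, a different range in each panel) by line and GFP sort; points are libraries, lines the mean and SD of 3. GFP high (green) lies above GFP low (grey) in both lines for the 4 upper genes and below it for the 4 lower genes.

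The other 21 genes risen in both lines lost a call in 1 line in at least 1 omission. Those the size rule names are DOCK4 (a Rac activator), IGF1R (the insulin-like growth factor receptor), FAT1 (an atypical cadherin), CRIM1 and TMEM178B, with mean log2 changes of 0.51 ± 0.08, 0.52 ± 0.07, 0.43 ± 0.08, 0.49 ± 0.08 and 0.44 ± 0.08 (SE). IGF1R was at 72.1 CPM in DU145 GFP high against 46.9 in GFP low and at 53.6 against 40.2 in PC3. LATS2, TLE4, C3 and SOD2 are described with their lists. PRPF8, ERAP1, LAMB1, DTX3L, SERPINB8, OTUD3, SLC44A1, MAPK8IP3, FNBP4, GSE1, FECH and TNFRSF10B make up the rest and were chosen after their values were seen. Unequal sizes stood out for LAMB1, the laminin β1 chain: its log2 change was 0.47 in DU145 (39.3 against 28.5 CPM) and 2.97 in PC3 (57.8 against 7.44 CPM). PRPF8, a core spliceosome protein, was the most abundant of the 28, at 3164 CPM in DU145 GFP high against 1951 in GFP low. The median absolute log2 change of the 28 was 0.47 in DU145 and 0.62 in PC3, and 1 gene passed 2-fold in each line.

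The size rule also named 4 genes with no call in PC3: NORAD (a long noncoding RNA that binds PUMILIO proteins), FRMD6, SGK1 (a serum-responsive kinase) and HIVEP2. Their mean log2 changes were 0.51, 0.43, 0.54 and 0.38. HIVEP2 lost its call in the mean without DU145 GFP low 3 (adjusted p = 0.055, limma) and without PC3 GFP high 3 (adjusted p = 0.051).

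The 15 genes that fell in both lines in each omission were SERPINE2, PADI3, CD9, PCDHGC3, KRT8, KIAA0930, WARS, ALDH1A1, RAPGEF3, KLHL22, PYGB, PDLIM1, LOXL2, TUBB2A and FAM171A1. ALDH1A1, RAPGEF3, KLHL22, PYGB, PDLIM1, LOXL2, TUBB2A and FAM171A1 were chosen after their values were seen. SERPINE2 and TUBB2A kept both calls in the 29 refits made at the 0.05 threshold, and LOXL2 and FAM171A1 lost them with the GC and length trend removed.

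SERPINE2 (chr2:223975112-224039319, minus strand), a secreted inhibitor of thrombin and urokinase, was at 21.2, 22.6 and 20.8 CPM in DU145 GFP high against 38.2, 43.5 and 39.1 in GFP low. In PC3 it was at 53.5, 59.6 and 48.8 CPM against 93.2, 89.8 and 93.7. The groups were far apart in each line and the fall was of like size, by 0.90 on the log2 scale in DU145 (adjusted p = 5.5e-05, limma) and by 0.78 in PC3 (adjusted p = 0.00012).

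KRT8 (chr12:52897187-52949954, minus strand), the luminal keratin 8, was at 1642, 1641 and 1976 CPM in DU145 GFP high against 2896, 2568 and 2801 in GFP low. Its PC3 level was far lower, at 16.2, 20.4 and 17.8 CPM in GFP high against 26.5, 28.3 and 23.5 in GFP low. It fell by 0.66 in DU145 and by 0.53 in PC3 (log2), and its counts were fractional in 8 libraries. CD9 (chr12:6199715-6238271, plus strand), a tetraspanin of epithelial membranes, stood at 131, 145 and 146 CPM in DU145 GFP high against 207, 204 and 209 in GFP low, and at 26.4, 23.0 and 26.5 CPM against 39.9, 44.0 and 38.3 in PC3. Its fall was by 0.56 in DU145 and by 0.69 in PC3 (log2; adjusted p = 0.0011 and 0.00014, limma).

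PADI3 (chr1:17249098-17284233, plus strand), which converts arginine to citrulline in proteins, was at 32.0, 33.5 and 32.6 CPM in DU145 GFP high against 49.2, 43.8 and 55.7 in GFP low. In PC3 the gap was wide, 10.5, 9.64 and 9.34 CPM against 67.1, 78.3 and 58.9. The log2 change was -0.59 in DU145 and -2.78 in PC3. PDLIM1, a cytoskeletal adaptor with a PDZ and a LIM domain, was at 65.7 ± 6.9 CPM against 121 ± 6.3 in DU145 (SD, n = 3) and at 5.92 ± 0.33 against 9.78 ± 1.4 in PC3. TUBB2A, a β-tubulin with near-identical relatives and fractional counts in 11 libraries, fell from 122 ± 7.1 to 69.5 ± 2.7 CPM in DU145 and from 89.7 ± 9.8 to 66.0 ± 0.44 in PC3.

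WARS, a tryptophanyl-tRNA synthetase, fell by 0.49 and 0.38 (log2, DU145 and PC3), and PYGB, a glycogen phosphorylase, by 0.49 and 0.42. PCDHGC3, a protocadherin of a clustered locus whose counts were fractional in all 12 libraries, fell by 0.63 and 0.56. ALDH1A1, a retinaldehyde dehydrogenase, was at 16.1, 17.1 and 14.2 CPM in PC3 GFP high against 49.8, 42.7 and 47.2 in GFP low. In DU145 it rested on 5 estimated counts over the 3 GFP high libraries and 18 over the GFP low ones, and each GFP high library lay at or under the floor that 3 counts set (0.130 to 0.233 CPM), so no DU145 fold is given. It passed the minimum through 1 line only.

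Among the other genes fallen in both lines, the size rule names, among others, DDIT4 (a stress-induced inhibitor of mTORC1), ANGPTL4, LGALS1 (galectin 1), PCK2 and STK32C. DDIT4 was at 32.1 ± 4.7 against 50.3 ± 7.7 CPM in DU145 (SD, n = 3) and at 19.3 ± 3.0 against 45.4 ± 9.8 in PC3. LGALS1 was at 320 against 459 CPM in DU145 and at 358 against 539 in PC3. The median absolute log2 change of the 105 was 0.42 in DU145 and 0.48 in PC3, 8 had a difference between lines that was called, and 5 had fractional counts in all libraries.

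Changes in DU145 varied with the base composition of the transcripts. Across genes, the Spearman correlation of the log2 change with transcript GC content was -0.70 in DU145, -0.13 in PC3 and -0.65 in the mean, a description over genes that share the same libraries. The median mean-contrast change was 0.22 in the 1731 genes with the lowest GC content and -0.19 in the 1730 with the highest. In the lowest class 209 genes rose and 17 fell in the mean, and in the highest class 32 rose and 512 fell. The 105 genes fallen in both lines had a median GC content of 58.4% against 50.6% over all genes, and the 28 risen 49.3%. With a smooth trend in GC content and length removed, 88 genes rose in both lines (20 of the 28 among them), 109 fell (54 of the 105) and 406 changed oppositely, and the mean contrast gave 915 risen and 1071 fallen.

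**Figure D4:**
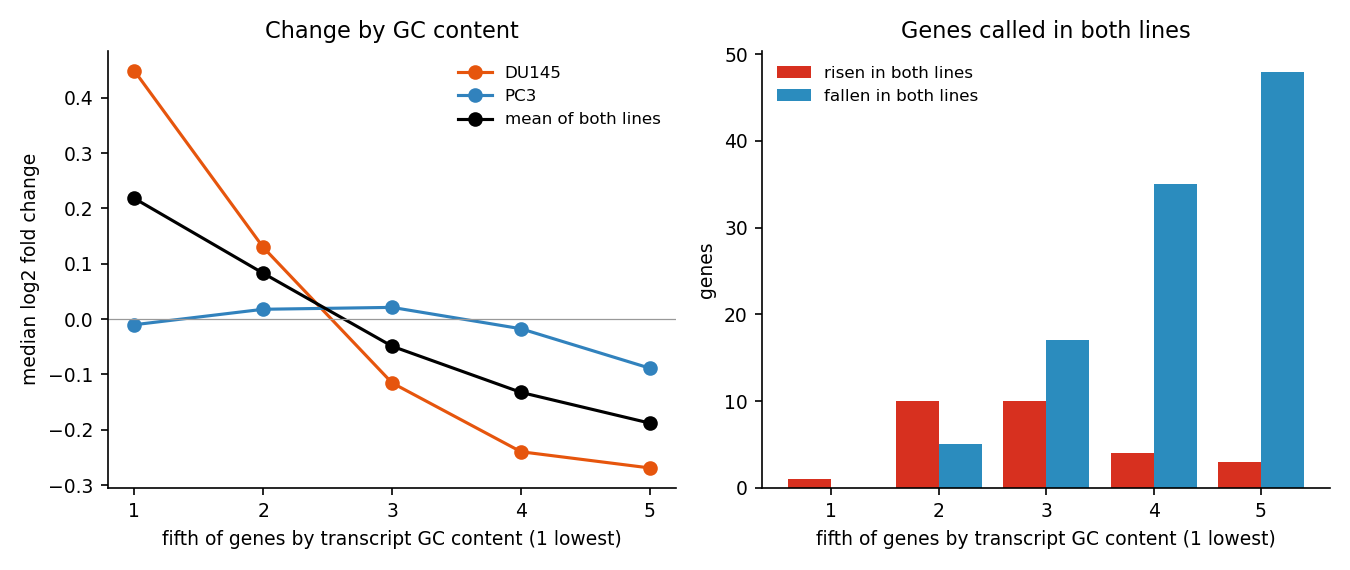
Left, median log2 fold change of genes in 5 classes of transcript GC content, for DU145, PC3 and their mean; right, number of genes called in both lines in each class. The mean falls from 0.22 to -0.19 across classes, and genes fallen in both lines go from 0 to 48.

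Wnt pathway genes were described from 3 lists and 8 genes taken in any case. LEF1 was below the minimum and was tested in the fit over all 18950 genes, in which 8.74% were called in the mean (3.31% risen and 5.43% fallen). It was at 1.88, 2.32 and 2.44 CPM in DU145 GFP high against 0.879, 0.355 and 0.691 in GFP low, and at 5.14, 4.16 and 3.92 CPM in PC3 GFP high against 1.66, 0.920 and 1.70 in GFP low. The groups did not overlap in either line. LEF1 rose by a mean of 1.77 ± 0.28 log2 units (SE, adjusted p = 0.0017, limma), and it was the 1 gene of the 8 called in the mean. AXIN2 was at 1.03 ± 0.49 CPM against 0.567 ± 0.35 in DU145 and at 0.841 ± 0.22 against 0.727 ± 0.41 in PC3 (SD, n = 3), overlapping in both lines (mean adjusted p = 0.35, limma). The mean adjusted p values were 0.69 for NKD1, 0.49 for RNF43, 0.40 for ZNRF3, 0.26 for TCF7, 0.21 for CTNNB1 and 0.31 for TCF7L2, from the fit with no minimum for each gene below it.

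Of 7 genes of the Wnt feedback list above the minimum, 1 rose and 1 fell in the mean (14.3% each), where 6.9% of all genes rose and 13.1% fell. The median of the list was -0.15 against -0.03 over all genes. The called genes were LRP6, a coreceptor (mean log2 0.33, adjusted p = 0.049, limma), and PORCN, which acylates Wnt ligands (mean log2 -0.33, adjusted p = 0.021). Neither is among the feedback inhibitors named above, so these calls do not describe Wnt feedback. LRP6 lost its call in 10 of the 12 single omissions and PORCN without DU145 GFP low 1, DU145 GFP low 3 or PC3 GFP high 3 (adjusted p = 0.059, 0.060 and 0.053). PORCN also lost it once the trend on GC and length was taken out (adjusted p = 0.13) and LRP6 with quantile normalization (adjusted p = 0.058). Of 21 other Wnt targets 3 rose (14.3%) and 5 fell (23.8%), with a median of -0.05, FN1 being the 1 risen in both lines. FN1 was tested only through PC3 GFP high, so its call is a description. VCAN, the matrix proteoglycan versican, and EPHB4, an ephrin receptor, fell in the mean by 0.67 and 0.33, and EPHB4 lost its call with the GC and length trend removed. Of 39 pathway components 4 rose (10.3%) and 5 fell (12.8%), with a median of -0.01, and of 0.01 with equal medians. TLE4, a Groucho corepressor, rose in both lines (0.47 and 0.27 log2), a call lost in 1 line with the replicate block in PC3 only, and LRP5, the other coreceptor, chosen after its values were seen, fell in both (by 0.26 and 0.33), a call lost in the mean with the GC and length trend removed. WLS, which carries Wnt ligands to the surface, FZD8, a receptor, and CTNNBIP1, an inhibitor of β-catenin, were called in the mean through DU145: their log2 changes were 3.67, -1.92 and -0.79 there and -0.28, -0.03 and -0.23 in PC3.

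Matrix genes moved in both directions. Of 24 extracellular matrix and basement membrane genes, 9 rose in the mean (37.5%, against 6.9% of all genes) and 4 fell (16.7%, against 13.1%), with a median of 0.04. In the single lines, 3 rose in both (FN1, HSPG2 and LAMB1), 1 fell in both and 4 went opposite ways. FN1 was tested only through PC3 GFP high, so its place in these counts is a description. COL4A1 and COL4A2, the paired chains of type IV collagen, had log2 changes of 2.71 and 2.70 in PC3 and of -0.22 and -0.29 in DU145. Of 20 adhesion and junction genes 8 rose (40%) and 4 fell (20%), with a median of 0.01. CD9 fell in both lines, while CDH2 (N-cadherin) and DSG2 (desmoglein 2) rose in DU145, by 2.46 and 1.48 log2 units, with PC3 values of 0.38 and -0.09. Of 9 epithelial-mesenchymal transition genes 3 rose and 3 fell in the mean (33.3% each). FN1 and CDH2 rose, and SNAI1, a repressor of E-cadherin that reached the minimum only in GFP low libraries, and VIM, vimentin, fell by 0.85 and 0.28.

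YAP targets and NF-κB genes had more rises than falls in the mean, although single lines carried most of them. Of 21 YAP and Hippo genes 8 rose (38.1%, against 6.9% of all genes) and 1 fell (median 0.18 against -0.03 over all genes), 2 of them risen in both lines: CRIM1, a transmembrane antagonist of BMPs, and LATS2, a Hippo kinase, which lost a line's call with the replicate block in both lines or in PC3 only. Without DU145 GFP high 1 and 2, 3 rose. WWC1 rose in PC3 by 0.78 (-0.07 in DU145) and AMOTL1 in DU145 by 0.90 (0.11 in PC3). Of 25 NF-κB and inflammatory genes 11 rose (44%) and none fell in the mean (median 0.24), but 4 rose and 8 fell in DU145 and 14 rose and none fell in PC3, so that 2 rose in both and 6 went opposite ways. With the replicate block 17 rose in the mean, and 8 did without DU145 GFP high 1 and 2. The 2 risen in both were C3, complement component 3, and SOD2, a mitochondrial superoxide dismutase with fractional counts in 11 libraries, which lost a line's call with the block in PC3 only. C3 was at 386 ± 15 CPM against 301 ± 19 in DU145 and at 146 ± 0.42 against 65.7 ± 9.1 in PC3 (SD, n = 3). CXCL1, a neutrophil chemokine, had log2 changes of 0.06 in DU145 and 1.57 in PC3, and CCL2, a monocyte chemokine, of -0.70 and 3.50.

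Growth factor genes of the IGF and EGF families gave 3 risen (15%) and 4 fallen (20%) of 20, with a median of 0.02. Of all genes 6.9% rose and 13.1% fell. IGFBP3 and IGF1R rose in both lines, and TGFA, a ligand of the EGF receptor, had log2 changes of 1.15 in DU145 and 0.35 in PC3.

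Lists of stress and metabolic genes held more falls than rises, where 13.1% of all genes fell and 6.9% rose in the mean. Single-line falls in DU145 and PC3 numbered 17 and 5 for hypoxia and 6 and 5 for heat shock. For the unfolded protein response they were 15 and 3, and for NRF2 9 and 3, where 20.7% and 5.63% of all genes fell. Single-line rises in that order were 2 and 0, 3 and 1, 2 and 2, and 0 and 1. The PC3 medians were -0.14, -0.14, 0.06 and -0.001. Hypoxia and glycolysis genes numbered 31, of which 15 (48.4%) fell in the mean and none rose (median -0.20), and DDIT4 and NDRG1 fell in both lines. PFKL, a phosphofructokinase, and AK4, an adenylate kinase, fell in PC3 by 1.10 and 1.24, with DU145 values of -0.20 and 0.06. Of 24 heat shock genes 7 (29.2%) fell and none rose (median -0.12), and SERPINH1 (a collagen chaperone), HSPB1 and HSPA1B fell in both lines, by a mean of 0.54, 0.56 and 0.49. These 3 calls in both lines became 2 with equal medians, and 0 with quantile normalization or without DU145 GFP high 1 and 2. HSPA1B has a near-identical copy and fractional counts in all 12 libraries. AHSA1, an activator of HSP90, fell in the mean by 0.28. Of 33 genes of the unfolded protein response and ATF4, 13 (39.4%) fell and 2 rose (median -0.16), with WARS fallen in both lines, ASNS and SLC7A5 fallen in DU145 (by 0.78 and 0.70; 0.06 and 0.15 in PC3) and STC2 risen in PC3 (1.13; -0.14 in DU145). Of 22 NRF2 and antioxidant genes 8 (36.4%) fell and none rose (median -0.12). Without DU145 GFP high 1 and 2 the falls were 5 for hypoxia, 1 for heat shock, 2 for the unfolded protein response and 0 for NRF2, and the heat shock median was 0.05 under quantile normalization.

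S100 and annexin genes gave 7 fallen of 8 in the mean (87.5%, against 13.1% of all genes) and none risen, with a median of -0.47. In the single lines, 3 fell in DU145 (median -0.12) and 6 in PC3 (median -0.63), and none rose. S100A10, the partner of annexin A2, and S100A11 fell in both lines; S100A11 was chosen after its values were seen. Both lost their calls in both lines with equal medians and with quantile normalization, and without DU145 GFP high 1 and 2. S100A16 and S100A6 fell in PC3 by 0.61 and 1.44, with DU145 values of -0.19 and 0.02. ANXA1 fell in DU145, where it was at 0.359 CPM in GFP high against 1.63 in GFP low, and was at 111 against 114 CPM in PC3. Its DU145 GFP high level was near the floor that 3 counts set in those libraries (0.181 to 0.233 CPM). It passed the minimum of 16 CPM through PC3 only, so the size of its DU145 fall is uncertain. Ribosomal protein genes had small negative changes: 4 of 43 of the large (9.3%) and 2 of 32 of the small subunit (6.25%) fell in the mean and none rose (medians -0.18 and -0.20), with 37 and 28 below 0 in both lines. Of 38 oxidative phosphorylation genes 5 (13.2%) fell and none rose (median -0.18), and 29 were below 0 in both. These shares are near or below the 13.1% of all genes that fell. These 3 counts of falls were 11, 11 and 8 with the replicate block in PC3 only and 23, 20 and 17 with it in both lines, 1, 1 and 3 with equal medians, and 0 for each without DU145 GFP high 1 and 2. In the lists with no rise, members above 0 at an unadjusted p under 0.05 (limma) were 1 for NRF2, 1 for oxidative phosphorylation and 0 for hypoxia, heat shock, S100 and both ribosomal lists, and voom called none of them risen. No NF-κB gene was below 0 at that level or called fallen by voom. Of all 8655 genes, 2699 were below 0 in both lines and 1876 above.

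**Figure D5:**
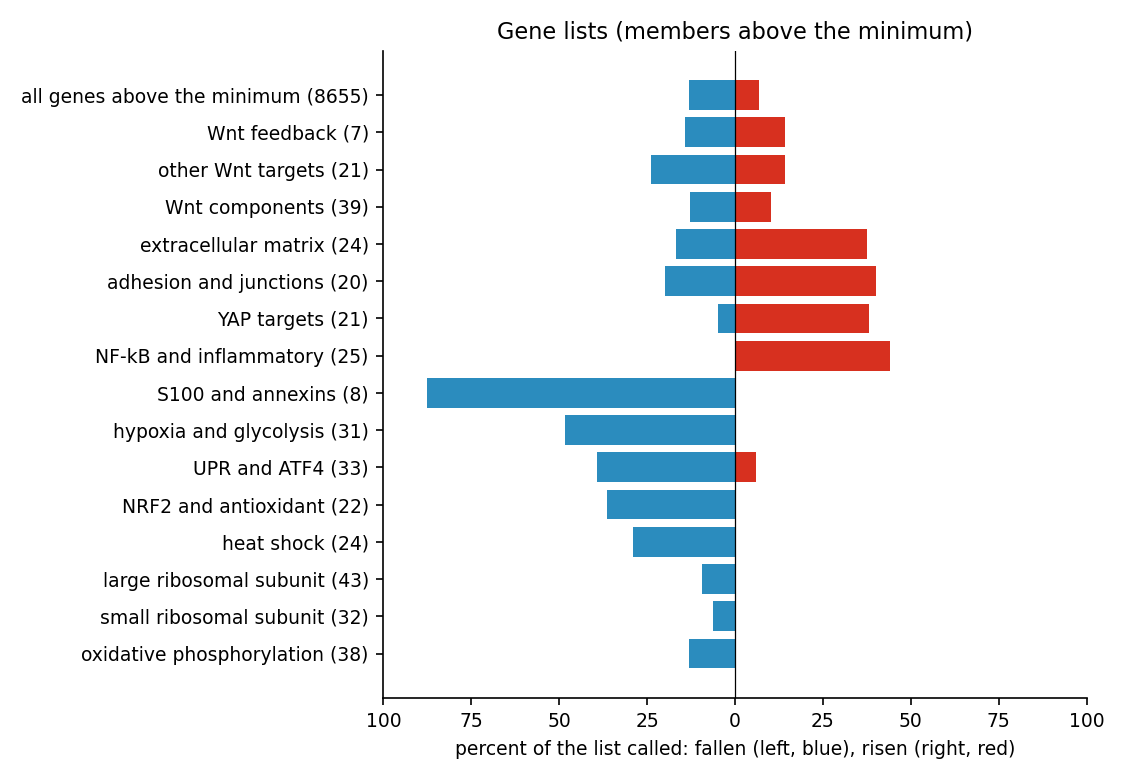
Percent of each gene list (members above the minimum in brackets) called in the mean of both lines, fallen to the left and risen to the right, beside all 8655 genes. Among the lists shown, NF-κB, YAP, adhesion and matrix genes reach furthest right, and S100 and hypoxia genes furthest left.

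Markers of the labelled cells were mixed. KRT8 and KRT18 were present in both lines and VIM was high. KRT8 was at 1641 to 2896 CPM in DU145 but at 16.2 to 28.3 CPM in PC3. EPCAM and CDH1, defining epithelial genes, held 9 and 34 estimated counts over all 12 libraries, and KLK3 and TMPRSS2 held 2 each. The near absence of EPCAM and CDH1 goes against an epithelial identity, and its cause was not tested. Of the luminal list 4 of 16 genes were above the minimum. In the mean 1 rose and 3 fell, where 6.9% of all genes rose and 13.1% fell, and CD9 and KRT8 fell in both lines. KRT18 had mean log2 -0.32 (adjusted p = 0.023, limma), above 0.05 without any 1 of 6 libraries. None of 12 fibroblast markers reached the minimum, and their summed level was 1.79 to 5.40 CPM. Of 10 endothelial markers ESAM reached it, with mean log2 0.60 and adjusted p = 0.020; the others summed to 0.737 to 1.54 CPM, and the leukocyte markers apart from CD68 to 0.392 to 2.64.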

How the data were processed

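Total RNA of 12 sorted samples was sequenced. STAR and DESeq2 are named in the submitters' processing notes, without versions or genome build. The authors deposited 1 table of log2 normalized values, per the labels. The values are whole multiples of a library-specific step after removing an offset of 0.5 counts, so estimated counts and CPM were read back from them (a median of 86.9% of values came out whole within 0.01); the test used the log2 values as deposited.

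Genes with a log2 value of at least 4 (16 CPM) in at least 3 of 12 columns were kept (8655 of 18950). A model with a mean for each of the 4 groups (8 residual degrees of freedom) was fitted with limma 3.58.1 in R 4.3.3, with an intensity trend in the empirical Bayes step and Benjamini-Hochberg adjustment, threshold 0.05. Contrasts were GFP high minus GFP low in each line, their mean and their difference. A call in both lines needs the threshold in each. The scripts were tested on simulated data. GENCODE 29 gave the GC content, length and position of 8651 tested genes. A value of 3 counts was taken as the floor of a library; it covers counting error only.

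Genes were named by this rule: adjusted p under 0.05 in the mean, the same sign and no overlap of high and low libraries in either line, mean log2 of at least 5, then the 12 risen and 12 fallen with the largest smaller within-line change; up to 4 members of each described list with the smallest p; and 8 Wnt genes. Other names are said to have been chosen after their values were seen. The members and the 42 lists were chosen with earlier results of these data known. Same-numbered high and low libraries had residual correlations of 0.12, 0.43 and 0.35 in PC3 and of -0.21, 0.19 and 0.47 in DU145. In PC3 the value for replicate 1 was no higher than that of GFP high 3 with GFP low 1 (0.14). The main fit has no block in either line. Alternatives covered minimum, scaling, variance model, pairing, GC trend, threshold and left-out libraries. Some results of the rule are not reported here.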

Additional observations from a re-analysis of the deposited data

Results flagged for a closer look

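Among the genes named, 32 had a change that differed between DU145 and PC3 by the test of the difference itself (limma, adjusted p under 0.05), against 1667 of 8655 genes overall. Values below are the DU145 minus PC3 log2 fold change. Among genes risen in both lines, the rise was larger in DU145 for HSPG2 (1.54) and PRPF8 (0.44), and larger in PC3 for FN1 (-1.11), LAMB1 (-2.50), RAB3B (-0.82), C3 (-0.81), GSE1 (-0.53), SOD2 (-0.49) and ANTXR1 (-0.42). FN1 passed the minimum through PC3 GFP high alone, so its difference is a description. Among genes fallen in both, the fall was larger in PC3 for PADI3 (2.19), SERPINH1 (0.53) and S100A10 (0.40), and larger in DU145 for TUBB2A (-0.37).

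Genes called in the mean but in 1 line, or in opposite directions, gave the widest gaps. CCL2 (-4.21), COL4A2 (-2.99), COL4A1 (-2.93), CXCL1 (-1.51), STC2 (-1.27) and WWC1 (-0.84) had the more positive change in PC3, as did ANXA1 (-2.15), FZD8 (-1.90), SLC7A5 (-0.85), ASNS (-0.83) and CTNNBIP1 (-0.56). The ANXA1 gap rests on a level near the floor in DU145 GFP high. WLS (3.95), CDH2 (2.08), DSG2 (1.57), TGFA (0.80) and AMOTL1 (0.79) had the more positive change in DU145, and so did S100A6 (1.45), AK4 (1.30) and PFKL (0.90).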

How the results depend on the processing

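The mean contrast gave 597 risen and 1138 fallen genes, and calls in each line 28 risen in both, 105 fallen in both and 153 opposite. Counts below keep that order. Leaving out 1 library gave 228 to 1653, 498 to 2305, 9 to 68, 29 to 252 and 74 to 237. The highest counts came without DU145 GFP high 3 and the lowest without DU145 GFP low 3, except 9 risen in both without DU145 GFP high 2. Without DU145 GFP high 1 and 2 they were 94, 178, 5, 7 and 24, and without PC3 GFP low 2 and 3, 172, 369, 12, 23 and 57. Array weights gave 2293, 3030, 254, 704 and 1171. Removing the GC and length trend gave 915, 1071, 88, 109 and 406. Equal medians gave 771, 714, 34, 58 and 134, and quantile normalization 667, 750, 32, 62 and 134. A minimum of log2 6 gave 308, 845, 12, 73 and 123, and each line fitted alone 17, 65 and 113 in the both-line counts. An adjusted p under 0.01 gave 151, 320, 7, 13 and 41, and at least 1.5-fold in each line 15, 21, 5, 13 and 24. A minimum of 0 gave 763, 1228, 42, 103 and 170. No minimum, no intensity trend, robust estimation, an offset of 8 and voom left each count within 1.5 times. The cause of these shifts was not tested. Omitting either pair of libraries left 1 library in a group, so those lower counts cannot be told apart from lost precision.

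With the replicate block in both lines the counts were 1493, 1960, 55, 240 and 260, and with the block and the GC trend removed 1200, 1474, 157, 151 and 500. With the block in PC3 only, an alternative chosen after seeing the data, they were 764, 1317, 21, 118 and 151. None of the genes followed lost its call in the mean under either block.

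Of 96 genes followed (those named or picked by the naming rule), ZNRF3 (0.045) and CTNNB1 (-0.012), neither called, changed sign with the GC trend removed, with or without the block. Of the 90 called in the mean, 27 lost the call without DU145 GFP high 1 and 2, 9 without PC3 GFP low 2 and 3, and at most 4 under the other refits at the 0.05 threshold. At the minimum of log2 6, 56 of the 90 were tested, and only those count there. Depth limits genes near the floor, such as ALDH1A1 and ANXA1 in DU145.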
